A study of Mus musculus with 8 samples.

Results

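Thyroid follicular cells make hydrogen peroxide at their apical membrane, because hormone synthesis needs it to bind iodide to thyroglobulin. The genes described here encode proteins that clear peroxides or deliver the selenium that many of these proteins carry: the glutathione peroxidases GPX1, GPX2, GPX3 and GPX4, the thioredoxin reductases TXNRD1 and TXNRD2, the selenium carrier SELENOP, the peroxiredoxins PRDX1 and PRDX5, and catalase, CAT. They were chosen by name and not by a rule on their measured values, though with earlier results of these data known. They are 10 of the 16119 genes in the mouse table.

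Bulk mRNA sequencing covered 8 mouse libraries, 2 in each of 4 groups: early passage TFCOs, late passage TFCOs, thyroid tissue and lung tissue. TFCOs are organoids of thyroid follicular cells, grown in basement membrane extract, and each passage group holds 1 library of line mThy14 and 1 of line mThy16. All libraries came from wild type C57BL/6 mice without any treatment. Each line was started from a single thyroid, so its early and late libraries are not independent samples, and per the study the organoids came from surplus material of female mice. The TFCO medium held B27 supplement, N-acetylcysteine, nicotinamide, R-spondin 3, the TGFβ inhibitor A83-01, the cAMP activator forskolin, EGF and FGF10. The tissues did not see this medium, so medium and culture cannot be told apart in any comparison of TFCOs with tissue. The sources used here give no age of the mice and do not say whether the tissues numbered 1 and 2 came from different animals. P-values therefore measure the spread between these libraries. The study used lung as an unrelated control tissue, and the passages to ask whether the organoids were stable.

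Values are normalized counts, that is reads per gene divided by 1 factor per library, and between 9755081 and 16904865 reads lay on genes in a library. The sum of 8 follicular cell markers, among them TG and PAX8, was 1556566 to 2225299 normalized counts in thyroid tissue, 22143 to 175340 in TFCOs and 2233 to 3261 in lung tissue. The sum of 8 lung epithelial markers was 553374 to 1124559 normalized counts in lung tissue, 11175 to 42028 in TFCOs and 15193 to 20468 in thyroid tissue. The highest sums of each list thus lay in the tissue it marks. Of the lung markers, the surfactant gene SFTPB was called higher in TFCOs than in thyroid tissue, at 1475 to 28177 normalized counts against 25.0 and 28.6. The libraries also fell into 2 sets. Across the table, 44 genes had no read in thyroid tissue 2, lung tissue 1 or lung tissue 2 but 50 or more normalized counts in all TFCOs and thyroid tissue 1, and 16 genes showed the reverse. None of the 10 genes was among these 60. Yet GPX1, GPX3 and SELENOP were lower in every TFCO library and thyroid tissue 1 than in thyroid tissue 2 and both lung tissues. Each comparison with thyroid tissue is also given within a set: TFCOs against thyroid tissue 1, and thyroid tissue 2 against lung tissue. All TFCOs lie in one set and both lung tissues in the other, so in that comparison the tissue cannot be told apart from the set.

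Glutathione peroxidases reduce peroxides with electrons from glutathione. Thioredoxin reductases recharge thioredoxin, which in turn serves the peroxiredoxins, and catalase splits hydrogen peroxide inside peroxisomes and needs neither glutathione nor thioredoxin. GPX1 to GPX4 and the thioredoxin reductases hold selenocysteine at the active site, an amino acid placed at a TGA codon that would otherwise end translation. The thyroid is known for a high selenium content, and its deiodinases, which activate and inactivate thyroid hormone, are selenoproteins as well.

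The selenocysteine codons are the feature that most of these genes share, and the coding sequence around them shows how alike the members are at their active site. In the following lines, read 5′ to 3′ on the coding strand of the GENCODE M21 annotation of GRCm38, capitals mark the TGA codon read as selenocysteine.
GPX1: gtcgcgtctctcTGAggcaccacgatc
GPX2: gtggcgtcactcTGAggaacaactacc
GPX3: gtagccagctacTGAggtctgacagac
GPX4: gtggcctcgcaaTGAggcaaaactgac
TXNRD1: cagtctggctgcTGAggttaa
TXNRD2: gtgactggttgcTGAggctaa
SELENOP, first of its codons: cttcaagccagcTGAtacttgtgtctt
SELENOP, last of its codons: aggaagtgaaaaTGAcattcaaactaa

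All 4 glutathione peroxidases shared 12 of the 27 bases shown. This count and those of the pairs include the TGA codon, on which the windows were placed and which is therefore the same in all. GPX1 and GPX2 were the closest pair, with 21 of 27 bases the same, and GPX3 had 13 of 27 in common with each of them. The codon is number 47 of 202 in GPX1 (chr9:108339451-108339453, plus strand), number 40 of 191 in GPX2 (chr12:76795256-76795258, minus strand), number 73 of 227 in GPX3 (chr11:54907256-54907258, plus strand) and number 129 of 254 in GPX4 (chr10:80054737-80054739, plus strand), with the stop codon included in each total. In both thioredoxin reductases it is the codon before the last amino acid, number 612 of 614 in TXNRD1 (chr10:82896037-82896039, plus strand) and number 526 of 528 in TXNRD2 (chr16:18477772-18477774, plus strand). SELENOP holds 10 such codons, the first being number 59 of 381 (chr15:3274848-3274850, plus strand) and the last number 377 (chr15:3279696-3279698). PRDX1, PRDX5 and CAT hold none.

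TFCOs and thyroid tissue differed most in the 2 secreted selenoproteins. GPX3, the extracellular glutathione peroxidase of plasma, was 30.4-fold lower in TFCOs than in thyroid tissue, and SELENOP, which carries selenium between organs, was 46.3-fold lower. The other 8 genes, all of which act within cells, lay between 1.93-fold lower (PRDX5) and 1.84-fold higher (PRDX1) and did not pass the test. The test was limma on log2(normalized counts + 1), with the 2 passages of a line averaged first, so that 2 lines were set against 2 tissues, and with p adjusted by Benjamini-Hochberg over the 14703 genes that reached 10 normalized counts in 2 libraries or more. All 10 genes passed this filter. An adjusted p under 0.05 counted as a call, which 2 of the 10 genes reached, both lower, against 3.65% of all genes tested, of which 3.05% were lower and 0.599% higher. The median difference was −0.67 on the log2 scale over the 10 genes and 0.05 over all genes tested.

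**Figure D1:**
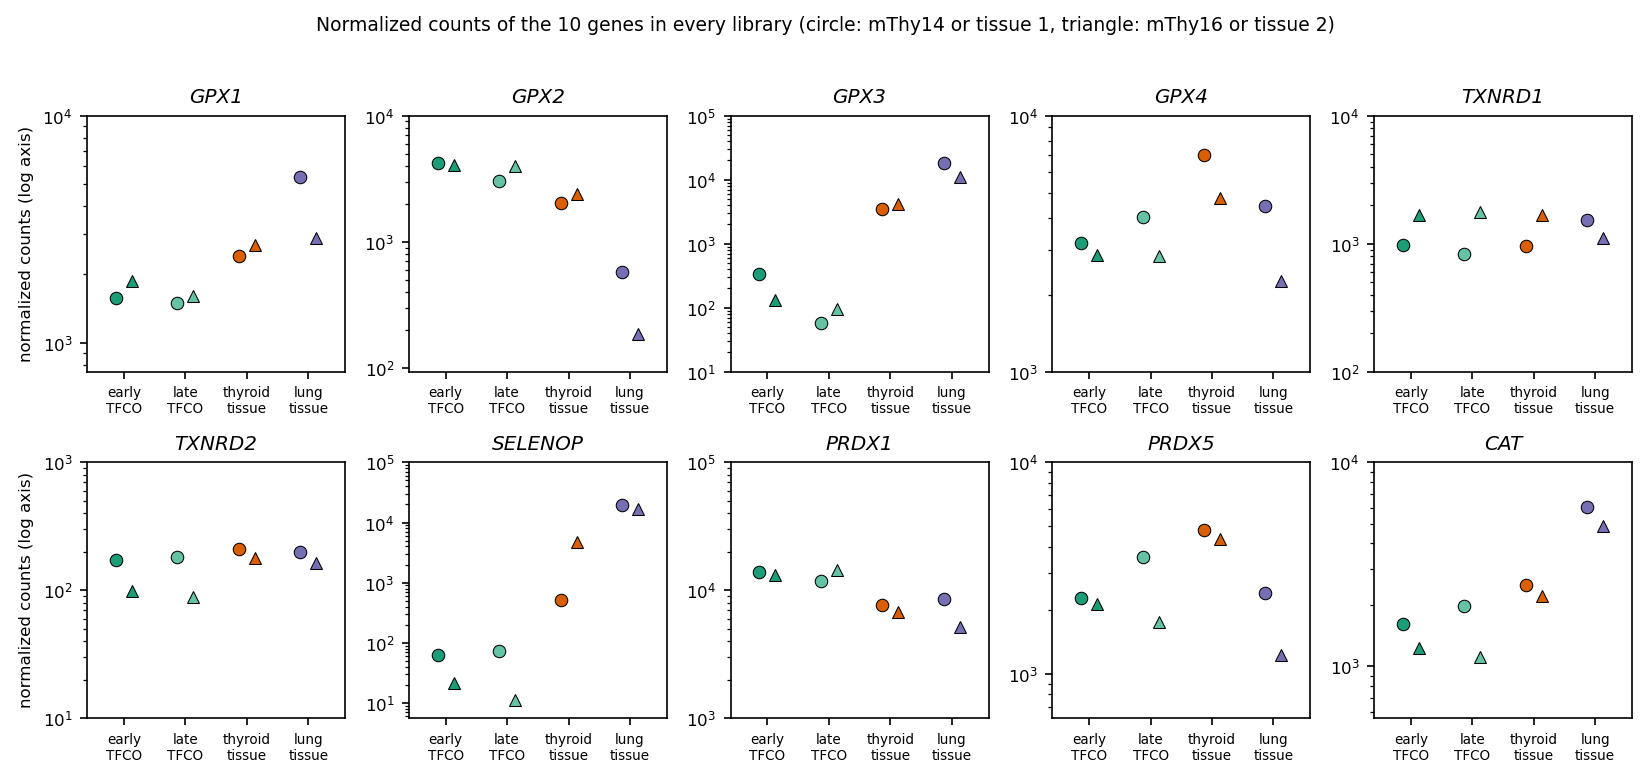
Normalized counts (log axis, with its own range in each panel) of the 10 genes in the 8 libraries, 1 point a library; circles are line mThy14 or tissue 1 and triangles line mThy16 or tissue 2. GPX3 lies between 57.2 and 339 normalized counts in the TFCOs and at 3521 or more in every tissue library, while TXNRD1 and TXNRD2 overlap between TFCOs and thyroid tissue.

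GPX3 is made mainly by kidney in the body and is secreted, and it is also known in thyroid. It stood at 339 normalized counts in early and 57.2 in late mThy14, and at 129.7 in early and 95.02 in late mThy16. Thyroid tissue held 3521 and 4135 normalized counts, and lung tissue 17936 and 10942. Every TFCO library was below both thyroid tissues, which in turn were below both lung tissues. The TFCO values rested on 55 to 241 reads. The difference between TFCOs and thyroid tissue was −4.93 on the log2 scale (SE 0.380, 95% interval −5.82 to −4.03, adjusted p = 0.0021). Against thyroid tissue 1 alone it was −4.81, or 28.1-fold lower, and it passed without thyroid tissue 2 (adjusted p = 0.030) and with the set of libraries as a covariate (adjusted p = 0.029).

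SELENOP held 61.8 and 72.9 normalized counts in early and late mThy14 and 21.8 and 11.2 in early and late mThy16, which were 10 to 70 reads. The 2 thyroid tissues stood far apart at 516 and 4702 normalized counts, and lung tissue held 19668 and 16577. SELENOP thus went with the sets of libraries, at 11.2 to 516 normalized counts in TFCOs and thyroid tissue 1 and 4702 to 19668 elsewhere. All 4 TFCO libraries were below both thyroid tissues, and line mThy14 was above line mThy16 at both passages. The difference between TFCOs and thyroid tissue was −5.53 on the log2 scale (SE 1.05, 95% interval −8.01 to −3.05, adjusted p = 0.039). Against thyroid tissue 1 alone it was −3.94, or 15.3-fold lower, and did not pass (adjusted p = 0.107 without thyroid tissue 2). The call was also lost without lung tissue 1 or lung tissue 2 (adjusted p = 0.096 and 0.098), which enter through the shared estimate of the spread. SELENOP was the only one of the 10 genes with a gap of 1 or more on the log2 scale between the 2 thyroid tissues (3.19). A gap of 1 or more was found in 45.6% of all genes tested and one as large as that of SELENOP in 10.95%. Of the SELENOP transcript annotation, 19.9% of stretches of 50 bases also occur in the overlapping gene Ccdc152.

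Markers of other cell types were read beside both genes. The sum of 7 fibroblast markers was 95.8 to 252 normalized counts in TFCOs, 26790 to 30033 in thyroid tissue and 25125 to 41805 in lung tissue, and all 7 were lower in every TFCO library than in both thyroid tissues, with LUM at 0 in all TFCOs. The sum of 7 endothelial markers was 204 to 538, 2864 to 8447 and 29289 to 49106 normalized counts in TFCOs, thyroid and lung tissue, again with 7 of 7 lower in TFCOs than in both thyroid tissues. The sum of 8 leukocyte markers was 63.2 to 1068, 803 to 2054 and 4212 to 6654 normalized counts, with 3 of 8 lower. In line mThy16 most of this sum was CD14, at 899 and 978 normalized counts; without CD14, a gene left out after its values were seen, the other 7 markers summed to 59.0 to 89.4 normalized counts in all TFCOs and to 754 and 1949 in thyroid tissue. Adipocyte markers summed to 16.7 to 56.2 normalized counts in TFCOs and 2327 to 7818 in thyroid tissue (4 of 6 lower), skeletal muscle markers to 2030 to 2696 and 52851 to 151899 (7 of 7 lower), and markers of C cells and parathyroid to 38.6 to 131 and 48288 to 93055 (6 of 6 lower, with PTH at 0 in all TFCOs). In lung tissue, where GPX3 and SELENOP were highest, adipocyte markers summed to 492 to 2556 normalized counts and muscle markers to 210 to 516. Markers of C cells and parathyroid summed to 36.9 to 41.1 there. The muscle sums of lung tissue were thus below those of the TFCOs, where ACTA1 alone held 1796 to 2442 normalized counts. By marker, 5 of the 7 had a positive and 2 a negative log2 difference between TFCOs and lung tissue. CKM was among the negative ones, at 0.990 to 16.9 normalized counts in TFCOs and 175 and 392 in lung tissue. The part of any of these cell types in the lower GPX3 and SELENOP of TFCOs was not tested. In such bulk libraries, fewer cells of a type and less RNA per cell cannot be told apart.

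**Figure D2:**
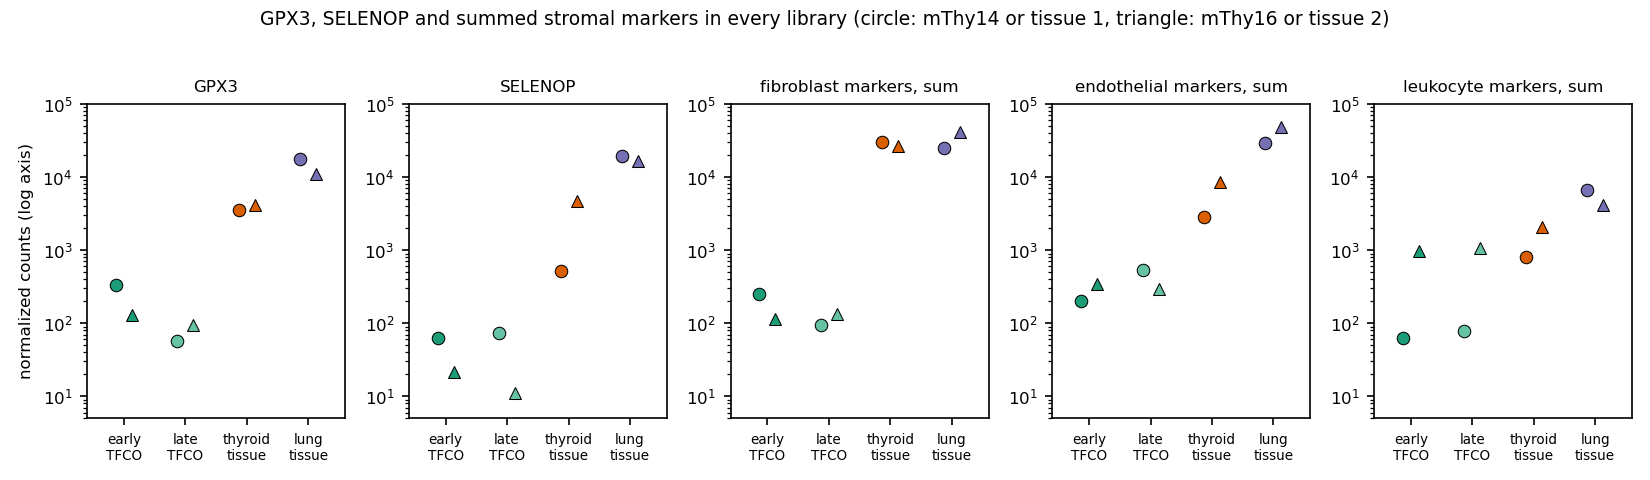
Normalized counts (log axis) of GPX3, SELENOP and the summed fibroblast (7 genes), endothelial (7 genes) and leukocyte (8 genes) markers in the 8 libraries; circles are line mThy14 or tissue 1 and triangles line mThy16 or tissue 2. The fibroblast and endothelial sums are at most 538 normalized counts in every TFCO library and at least 2864 in every tissue library, whereas the leukocyte sums of line mThy16, 987 and 1068, lie within the range of thyroid tissue through CD14, at 899 and 978.

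GPX2, the cytosolic glutathione peroxidase of epithelia, had its highest values in the TFCOs. It held 4238 and 3064 normalized counts in early and late mThy14 and 4084 and 3990 in early and late mThy16. Thyroid tissue held 2040 and 2401 normalized counts and lung tissue 580.5 and 187. All 4 TFCO libraries were above both thyroid tissues, and both thyroid tissues above both lung tissues. The difference between TFCOs and thyroid tissue was 0.78 on the log2 scale (SE 0.535, 95% interval −0.48 to 2.05) and did not pass (adjusted p = 0.434). Against thyroid tissue 1 alone it was 0.90. The pseudogene Gpx2-ps1 holds 18.9% of the stretches of 50 bases of GPX2, so some of its reads could have been placed there.

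GPX1, the most widespread cytosolic form, held 1576 and 1489 normalized counts in early and late mThy14, 1875 and 1604 in early and late mThy16, 2407 and 2681 in thyroid tissue and 5350 and 2894 in lung tissue. TFCOs did not overlap thyroid tissue, but the difference of −0.64 on the log2 scale did not pass (95% interval −1.59 to 0.31, adjusted p = 0.407). GPX4, which reduces lipid peroxides within membranes, held 3188 and 4019 normalized counts in mThy14, 2855 and 2824 in mThy16, 7022 and 4750 in thyroid tissue and 4434 and 2264 in lung tissue. It was lower in every TFCO library than in both thyroid tissues, and the difference of −0.86 on the log2 scale did not pass (95% interval −1.96 to 0.24, adjusted p = 0.358). GPX4 counts are uncertain, because 61.7% of its stretches of 50 bases also occur in 2 other genes, mostly in Gpx4-ps2.

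The make-up of the glutathione peroxidases was compared per length, with normalized counts divided by the length of 1 annotated transcript in kb. Of the summed normalized counts per kb of the 4 genes, GPX2 made up 34.5 to 46.0% in TFCOs, 14.2 and 18.6% in thyroid tissue and 2.56 and 1.46% in lung tissue. GPX3 made up 0.431 to 2.40% in TFCOs, 16.5 and 21.4% in thyroid tissue and 53.0 and 57.1% in lung tissue. The share of GPX1 stayed between 16.6 and 23.5% in all 8 libraries, and GPX4 took 33.7 to 48.5% in TFCOs, 52.6 and 39.4% in thyroid tissue and 21.0 and 18.9% in lung tissue. The ratio of GPX2 to GPX3 per kb was thus 18.7 to 80.0 in TFCOs, 0.866 and 0.867 in thyroid tissue and 0.048 and 0.026 in lung tissue. This ratio was nearly the same in the 2 thyroid tissues, whereas their GPX4 shares were 52.6 and 39.4%. With only 1 thyroid library per set, an effect of the set on the ratio was not tested. These shares are a description with no test. They hold for reads spread along the transcript, as the study's methods describe the library kit; the labels describe a protocol that reads mainly the 3′ end, for which no division by length would apply. The factor by which the ratio of 2 genes differs between libraries does not depend on the length used.

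**Figure D3:**
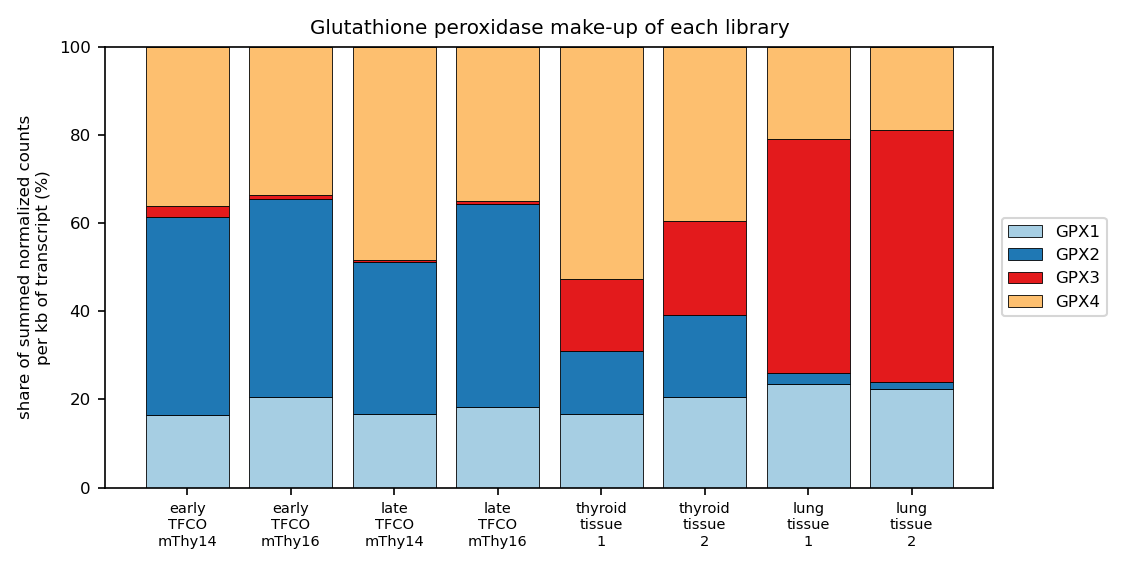
Share (%) of each of GPX1, GPX2, GPX3 and GPX4 in their summed normalized counts per kb of transcript, 1 bar a library. GPX2 takes 34.5 to 46.0% of the TFCO bars and GPX3 53.0 and 57.1% of the lung tissue bars, with thyroid tissue between them for both genes.

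TXNRD1, the cytosolic thioredoxin reductase, held 977 and 827 normalized counts in early and late mThy14, 1680 and 1784 in early and late mThy16, 968 and 1675 in thyroid tissue and 1544 and 1110.2 in lung tissue. The groups overlapped, and the spread lay between the lines and between the 2 thyroid tissues. The difference between TFCOs and thyroid tissue was −0.03 on the log2 scale (95% interval −1.13 to 1.07, adjusted p = 0.977), and against thyroid tissue 1 alone 0.37, so its sign changed with the tissue used. TXNRD2, the mitochondrial form, held 173 and 181 normalized counts in mThy14, 99.0 and 89.4 in mThy16, 209 and 178 in thyroid tissue and 199 and 164 in lung tissue. It also overlapped between TFCOs and thyroid tissue, with a difference of −0.58 (95% interval −1.85 to 0.70, adjusted p = 0.557).

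PRDX1, the abundant cytosolic peroxiredoxin, had the highest level per kb of the 10 genes in all TFCO and thyroid libraries and ranked 3 in both lung tissues, after GPX3 and SELENOP. It held 13861 and 11848 normalized counts in early and late mThy14, 13112 and 14351 in early and late mThy16, 7673 and 6776 in thyroid tissue and 8566 and 5138 in lung tissue. Every TFCO library was above both thyroid tissues, by 0.88 on the log2 scale on average (95% interval −0.25 to 2.01), which did not pass (adjusted p = 0.357). Of its stretches of 50 bases, 29.5% also occur in 3 other genes, mostly Gm21399. PRDX5, found in mitochondria, peroxisomes and cytosol, held 2273 and 3587 normalized counts in mThy14, 2148 and 1758 in mThy16, 4783 and 4339 in thyroid tissue and 2401 and 1232 in lung tissue. Every TFCO library was below both thyroid tissues, and the difference was −0.95 on the log2 scale (95% interval −1.99 to 0.09, adjusted p = 0.302). CAT held 1608 and 1972 normalized counts in mThy14, 1233 and 1111 in mThy16, 2508 and 2212 in thyroid tissue and 6012 and 4876 in lung tissue. The TFCOs were again below both thyroid tissues, with a difference of −0.71 (95% interval −1.59 to 0.18, adjusted p = 0.351). Per kb, PRDX1 stood at 17.9 to 38.5 times the level of CAT in TFCOs, at 9.11 and 9.13 times in thyroid tissue and at 4.25 and 3.14 times in lung tissue.

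Counted over all 10 genes, the 4 TFCO libraries lay above both thyroid tissues for GPX2 and PRDX1, below both for GPX1, GPX3, GPX4, SELENOP, PRDX5 and CAT, and overlapped them for TXNRD1 and TXNRD2. That made 8 of 10 genes without overlap, against 34.5% of all genes tested (17.2% above and 17.3% below). For these 8 genes the direction against thyroid tissue 1 alone is fixed by the lack of overlap, so it is no further check.

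**Figure D4:**
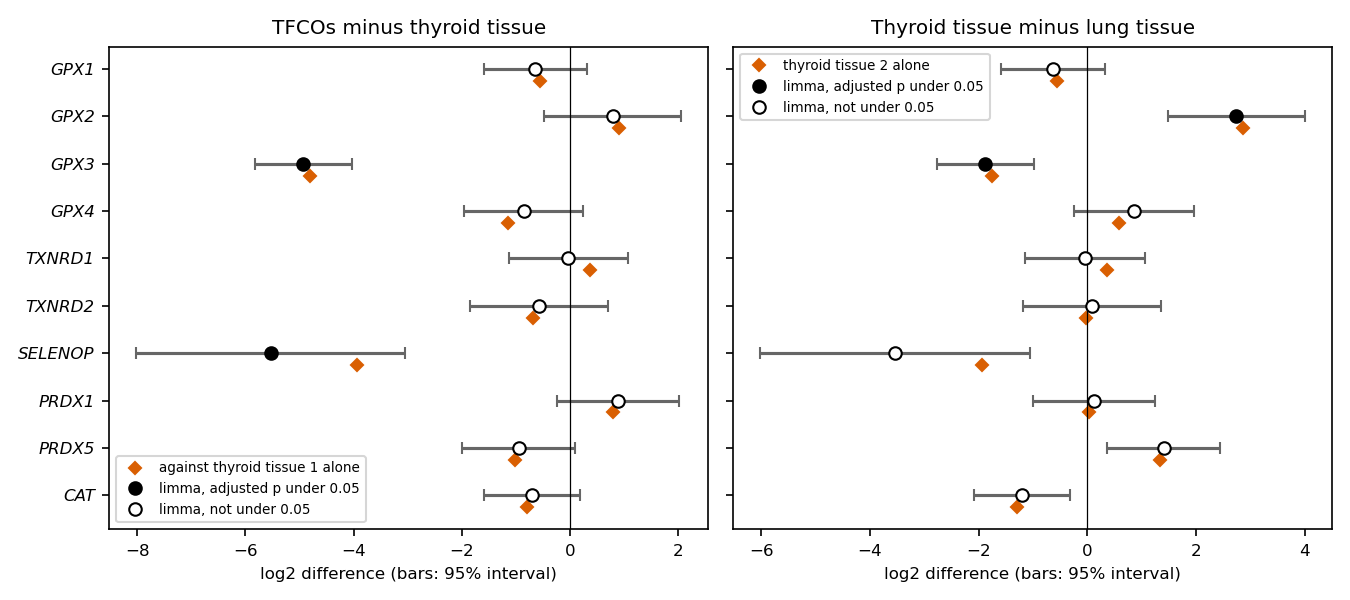
Log2 differences of the 10 genes for TFCOs minus thyroid tissue and for thyroid tissue minus lung tissue; circles are limma estimates with 95% intervals, filled where the adjusted p was under 0.05, and diamonds are the differences within a set of libraries (against thyroid tissue 1, or from thyroid tissue 2). GPX3 and SELENOP are far below 0 in TFCOs, at −4.93 and −5.53, and SELENOP moves to −3.94 within the set.

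Thyroid tissue differed from lung tissue in 2 of the 10 genes, against 6.05% of all genes tested, 2.89% higher and 3.16% lower. GPX2 was 6.69-fold higher in thyroid tissue (2.74 on the log2 scale, SE 0.535, adjusted p = 0.032), and GPX3 was 3.67-fold lower (−1.88, SE 0.380, adjusted p = 0.036). Within the set of libraries, thyroid tissue 2 against lung tissue gave 2.86 for GPX2, −1.76 for GPX3 and −1.94 for SELENOP. SELENOP was 11.6-fold lower in thyroid than in lung tissue, but with the 2 thyroid tissues so far apart it did not pass (−3.53, SE 1.05, adjusted p = 0.10). CAT at −1.20 (adjusted p = 0.112) and PRDX5 at 1.40 (adjusted p = 0.114) did not pass either. The remaining differences were −0.63 for GPX1, 0.87 for GPX4, −0.04 for TXNRD1, 0.09 for TXNRD2 and 0.12 for PRDX1. Thyroid tissue lay above lung tissue without overlap for GPX2, GPX4 and PRDX5, and below it for GPX1, GPX3, SELENOP and CAT, which is 7 of 10 genes against 53.8% of all genes tested (26.2% above and 27.5% below). Both calls rested on few libraries. Without lung tissue 1, lung tissue 2 or thyroid tissue 1, the adjusted p of GPX2 was 0.062, 0.222 and 0.085, and that of GPX3 was 0.298, 0.173 and 0.081. GPX3 also missed the threshold without early mThy14 (adjusted p = 0.062) and without late mThy14 (0.110), and SELENOP passed without thyroid tissue 2 (−5.13, adjusted p = 0.015). Neither gene passed with the tissue number as a replicate block (adjusted p = 0.117 for GPX2 and 0.190 for GPX3), a number that the labels do not tie to an animal.

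TFCOs and lung tissue differed in 4 of the 10 genes, in a comparison that called 23.4% of all genes tested and that cannot be told apart from the sets of libraries. GPX2 was higher in TFCOs by 3.53 on the log2 scale (SE 0.535, adjusted p = 0.0079). Lower in TFCOs were GPX3, at −6.80 (adjusted p = 0.00032), SELENOP, at −9.07 (adjusted p = 0.0032), and CAT, at −1.91 (adjusted p = 0.017). Of all genes tested, 9.83% were called higher and 13.5% lower. GPX1, at −1.27, missed the threshold (adjusted p = 0.059), and it passed without thyroid tissue 1 or thyroid tissue 2 (adjusted p = 0.041 in both) and under 4 other settings (adjusted p = 0.0095 to 0.047). PRDX1 stood at 1.00 (adjusted p = 0.147) and passed with the 4 TFCO libraries as separate samples (adjusted p = 0.037). TFCOs lay above lung tissue without overlap for 2 and below it for 4 of the 10 genes, which makes 6 against 67.7% of all genes tested (34.4% above and 33.3% below). The call of CAT was lost without lung tissue 1 or lung tissue 2 (adjusted p = 0.155 and 0.124), and that of GPX2 without lung tissue 2 (0.061). This comparison and the other 2 use the same thyroid, lung or TFCO libraries, so the 3 are not independent.

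None of the 10 genes passed the test of late against early TFCOs, in a limma fit of all 8 libraries that called 0 of 14703 genes and gave 166 genes, or 1.13%, an unadjusted p under 0.05. The limma voom test on reads called 0 genes as well. GPX3 had the largest difference, −1.49 on the log2 scale (SE 0.515, 95% interval −2.68 to −0.31, unadjusted p = 0.019, adjusted p = 1.0). The other 9 genes lay between −0.34 for SELENOP and 0.18 for PRDX5. The widest of their intervals was that of SELENOP, from −2.92 to 2.25, and the narrowest that of GPX1, from −1.01 to 0.71. Late libraries were below early ones without overlap for GPX2 and GPX3, which is 2 of 10 genes against 23.3% of all genes tested (11% above and 12.4% below).

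By line, the late minus early difference of GPX3 was −2.54 on the log2 scale in mThy14 and −0.45 in mThy16. GPX1 (−0.08 and −0.22) and GPX2 (−0.47 and −0.03) were also lower in the late library of both lines. For the other 7 genes the differences of the lines had opposite signs, and none of the 7 exceeded 0.5 in both lines. PRDX5 was higher at late passage in mThy14 (0.66) and lower in mThy16 (−0.29), and SELENOP stood at 0.23 and −0.90. With the line as a replicate block, still no member and no other gene was called. With 1 library per line and passage, these differences have no replicate check.

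**Figure D5:**
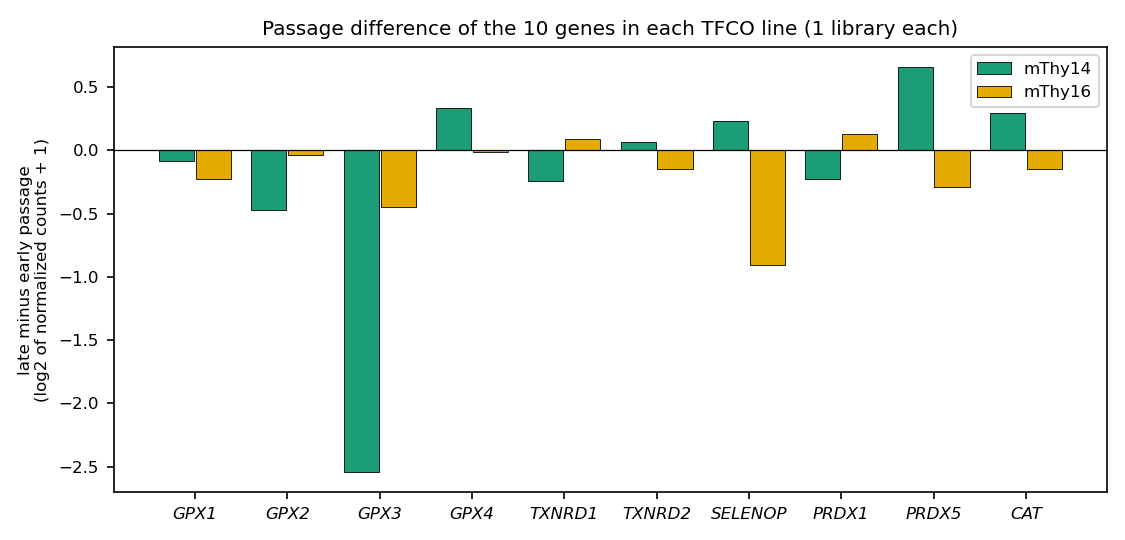
Late minus early passage difference (log2 of normalized counts + 1) of the 10 genes in lines mThy14 and mThy16, each bar the difference of 2 libraries. The bar of GPX3 in mThy14 reaches −2.54; every other bar lies between −0.90 and 0.66, and in 7 genes the lines point opposite ways.

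The lines themselves stood apart for 7 of the 10 genes, against 55.5% of all genes tested (29.1% with mThy14 above and 26.4% below), which is a description over 2 libraries a line. Both mThy14 libraries were above both mThy16 libraries for GPX4, TXNRD2, SELENOP, PRDX5 and CAT, and below them for GPX1 and TXNRD1. Glutathione reductase, GSR, which returns glutathione to its reduced form, went with TXNRD1: it held 460 and 611 normalized counts in early and late mThy14 and 2416 and 2685 in early and late mThy16, beside 409 and 643 in thyroid tissue. GSR was named beyond the rule for list genes, with its values known.

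Peroxide makers, here enzymes that make peroxide and partner proteins such as DUOXA1, DUOXA2 and CYBA, were read beside the genes that clear it. Of 10 such genes tested, 1 was lower in TFCOs than in thyroid tissue and none was higher. Over all genes tested, 3.05% were called lower and 0.599% higher. The median of the 10 was −1.75 on the log2 scale, against 0.05 for all genes tested. The called gene was CYBB, the catalytic subunit of the phagocyte oxidase, at 2.24 to 18.3 normalized counts in TFCOs and 156 and 286 in thyroid tissue (−5.07, adjusted p = 0.015). CYBB was low in both lines. The sum of all 8 leukocyte markers was not, at 987 and 1068 normalized counts in early and late mThy16. In that line it was low only without CD14, which was left out after its values were seen. The part of leukocytes in the CYBB difference was not tested. DUOX2, the main peroxide source of follicular cells, held 132 and 143 normalized counts in early and late mThy14, 75.3 and 80.5 in mThy16, and 643 and 623 in thyroid tissue. All 4 TFCO libraries were thus below both thyroid tissues, but the difference of −2.60 did not pass (adjusted p = 0.079). Its maturation factor DUOXA2 held 15.8 to 308 normalized counts in TFCOs and 778 and 1081 in thyroid tissue (−3.78, adjusted p = 0.115). DUOX2 and DUOXA2 were named beyond the rule for list genes, for their role and with their values known. Between thyroid and lung tissue, 5 of the 10 were higher in thyroid tissue and none lower, against 2.89% higher and 3.16% lower over all genes tested; the 4 largest were DUOXA2 (8.57, adjusted p = 0.0091), DUOX1 (6.65, 0.025), DUOX2 (5.78, 0.0062) and DUOXA1 (5.43, 0.029).

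Among 17 other selenoproteins, 1 was lower in TFCOs than in thyroid tissue and none higher (median −0.15). The shares over all genes tested were 3.05% lower and 0.599% higher. The called selenoprotein was DIO1, the deiodinase that makes active hormone in thyroid, liver and kidney. DIO1 held 415 and 72.9 normalized counts in early and late mThy14, 41.6 and 15.7 in early and late mThy16, 2471 and 5990 in thyroid tissue and 7.54 and 5.39 in lung tissue. TFCOs lay between thyroid and lung tissue in every library, at −5.82 on the log2 scale against thyroid tissue (adjusted p = 0.025). DIO1 was also the 1 gene of the list called between thyroid and lung tissue (9.02, adjusted p = 0.0055). Against lung tissue, TFCOs had less SELENOM (−3.33) and SELENOW (−2.38) and more SEPHS2 (1.93), which makes the selenium donor for selenocysteine and is a selenoprotein itself. SEPHS2 was even across the TFCOs, at 1018 to 1113 normalized counts, and stood at 654 and 404 in thyroid tissue (1.03, adjusted p = 0.241). GPX6 and SELENOH could not be compared across the sets of libraries, which their values follow. GPX6 held 32.3 to 46.4 normalized counts in TFCOs, 553 in thyroid tissue 1 and 0 elsewhere. Against thyroid tissue 1 alone it stood at −3.89 on the log2 scale, which rests on 1 tissue library. SELENOH held at most 6.25 normalized counts in TFCOs and thyroid tissue 1 and 205 to 402 elsewhere. SELENOW went with the sets as well, at 436 to 575 normalized counts in TFCOs and thyroid tissue 1 and 1964 to 3022 elsewhere, and against thyroid tissue 1 alone it stood at −0.29.

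Of 10 genes for selenocysteine synthesis and selenium uptake, none passed between TFCOs and thyroid tissue (median 0.54). The largest differences were 2.34 for LRP8, a receptor that takes up SELENOP (adjusted p = 0.237), and −1.44 for SCLY, which recovers selenium from selenocysteine (adjusted p = 0.552). SCLY went with the sets of libraries, and against thyroid tissue 1 alone its difference was 0.69. LRP8 held 125.9 to 397 normalized counts in TFCOs, 105 and 23.0 in thyroid tissue and 27.6 and 19.5 in lung tissue, so that TFCOs were above both tissues. It passed against lung tissue (3.39, adjusted p = 0.041), as did SEPSECS (−1.79) and SECISBP2L (−1.43). SECISBP2L was also lower in thyroid than in lung tissue (−1.83, adjusted p = 0.035).

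Among 7 other peroxiredoxins, glutathione peroxidases and their helper sulfiredoxin, SRXN1, none passed between TFCOs and thyroid tissue (median −0.58). SRXN1 stood at −3.10 (adjusted p = 0.213) and GPX8, of the endoplasmic reticulum, at −2.39 (adjusted p = 0.054). SRXN1 went with the sets of libraries, at 7.03 to 40.3 normalized counts in TFCOs and thyroid tissue 1 and 313 to 529 elsewhere. PRDX6, which also reduces phospholipid peroxides and is known as abundant in lung, held 24568 and 13821 normalized counts in lung tissue, 3555 and 2058 in thyroid tissue and 1944 to 2656 in TFCOs. It was lower in thyroid than in lung tissue (−2.77, adjusted p = 0.024) and lower in TFCOs than in lung tissue (−2.94, adjusted p = 0.010). Against lung tissue, SRXN1 (−4.68) and GPX8 (−2.83) were also lower in TFCOs and PRDX4 (1.33) was higher.

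The glutathione and thioredoxin cofactor genes gave no call among 11 tested between TFCOs and thyroid tissue (median 0.23), with 2.12 for SLC7A11, the cystine importer, and −1.20 for GLRX as the largest. SLC7A11 was low throughout, at 0.922 to 38.5 normalized counts. None of the 11 passed between thyroid and lung tissue, where SLC7A11 stood at −3.52 (adjusted p = 0.122) and GCLC, of glutathione synthesis, at −1.28 (adjusted p = 0.106). GLRX3 alone passed between TFCOs and lung tissue (1.64, adjusted p = 0.040). None of the 3 superoxide dismutases, which turn superoxide into peroxide, passed in any comparison. The extracellular form, SOD3, held 44526 and 9017 normalized counts in early and late mThy14, 2493 and 2195 in early and late mThy16, 557 and 2716 in thyroid tissue and 3676 and 5938 in lung tissue. Its difference between TFCOs and thyroid tissue was 2.48 (SE 1.09, adjusted p = 0.284), with a wide spread between the lines. The mitochondrial form, SOD2, stood at −0.82 (adjusted p = 0.325). Between thyroid and lung tissue, SOD3 stood at −1.92 and SOD2 at 0.81, and between TFCOs and lung tissue SOD3 stood at 0.55 and the cytosolic SOD1 at 0.52.

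NRF2 is the transcription factor that switches on many of these genes under oxidative stress. Of 10 genes of its pathway, 1 was lower in TFCOs than in thyroid tissue and none higher (median −0.43). Over all genes tested the shares were 3.05% lower and 0.599% higher. The called gene was the quinone reductase NQO1, at 1.41 and 11.4 normalized counts in early and late mThy14, 3.96 and 15.7 in early and late mThy16, 142 and 221 in thyroid tissue and 211 and 70.8 in lung tissue (−4.66, adjusted p = 0.034). None of the 10 passed between thyroid and lung tissue, with GSTA4 at −2.95 (adjusted p = 0.116) and ME1 at 1.76 (adjusted p = 0.089) as the largest. Against lung tissue, GSTA4 (−6.46), NQO1 (−4.13), HMOX1 (−2.99) and FTH1 (−2.45) were lower in TFCOs; FTH1 went with the sets of libraries, at 3977 to 8582 normalized counts in TFCOs and thyroid tissue 1 and 21317 to 34489 elsewhere. PRDX1 and TXNRD1 are known targets of NRF2, and promoters of the 10 genes were searched for TGACNNNGC, the core of its binding element, on both strands. The windows ran from 250 bases before to 50 bases after each transcript start in RefSeq on GRCm38.p6. The motif was found in 2 of the 10 genes, against 13.99% of all genes with a window. Both matches lay on the strand opposite to the gene and are shown with the motif in capitals.
PRDX1, chr4:116685456-116685484: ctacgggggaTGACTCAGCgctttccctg
TXNRD1, chr10:82859104-82859132: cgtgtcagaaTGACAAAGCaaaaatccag

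The match starts 133 bases before the transcript start in PRDX1 and 92 bases before 1 of the annotated starts in TXNRD1. It describes the sequence and is not a measured binding site.

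Between early and late TFCOs no gene of any of these lists passed. The largest differences per list were −2.21 for DIO2 and −1.92 for DIO1 among the other selenoproteins, −2.68 for SCLY and 1.04 for SEPSECS in selenocysteine synthesis and uptake, and 0.58 for GPX7 and 0.54 for SRXN1 among the other peroxidases. They were 0.47 for TXNIP and 0.45 for SLC7A11 among the cofactor genes, −1.24 for SOD3 and 0.02 for SOD2 among the dismutases, and 2.06 for NQO1 and 1.07 for GSTM1 in the NRF2 pathway. Among the peroxide makers they were −2.78 for CYBA and −2.30 for NOX4. CYBA was low in 1 library only, late mThy14, at 41.6 normalized counts against 793 to 1902 in the other 7. Of the genes just named, GPX7, GSTM1, TXNIP, SLC7A11 and SOD2 went opposite ways in the 2 lines. GPX7 stood at −2.43 in mThy14 and 3.59 in mThy16, whose early library held 3 reads of it. GSTM1 stood at 2.60 in mThy14 and −0.45 in mThy16. Against lung tissue, the peroxide makers gave 4 higher and 2 lower of 10 in TFCOs, against 9.83% higher and 13.5% lower over all genes tested, the 4 largest being CYBB (−7.65), NOX4 (−5.59), DUOX1 (4.93) and DUOXA2 (4.78).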

How the data were processed

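RNA of 8 mouse libraries was read from 1 table of normalized counts, with gene symbols in capitals as kept here. The authors deposited these values, a signal of read counts per gene divided by 1 factor per library; the methods name DESeq2, and the submitters' processing notes name BWA 0.6.2-r126 and the builds mm10 and hg38. The methods describe a stranded poly(A) kit, the labels an adapted CEL-Seq protocol. All values above 0 were whole multiples of 1 step per library (tolerance 0.05), which gave the reads per library. With 2 libraries a group, their number limits the precision.

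Groups came from the sample titles. Values were analysed as log2(normalized counts + 1) in limma 3.58.1 (R 4.3.3), with a mean-variance trend, two-sided tests and Benjamini-Hochberg adjustment over all 14703 genes tested. The comparisons with tissue used 1 fit of TFCO lines (passages averaged), thyroid and lung tissue; passages used a fit of all 8 libraries. The fits were tested on simulated data. The 10 genes and all lists were chosen with earlier results of these data known. Named were all 10 genes and, per list, the called genes (at most the 4 largest) or else the 2 largest differences; genes named beyond this, GSR among them, were chosen after their values were seen. Alternatives changed the pseudocount (0.5, 8), filter, scaling, trend, libraries and fit; limma voom on the reads and the set covariate were added after the data were seen. Line numbers pair libraries of the same thyroid (r = 0.477 between the passages' line differences over 14703 genes). Coordinates and sequences came from GENCODE M21 and RefSeq. SELENOV did not pass the filter, and results of some genes are not reported here.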

Additional observations from a re-analysis of the deposited data

How the results depend on the processing

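GPX3 stayed lower in TFCOs than in thyroid tissue and passed under all 19 alternatives run, at −5.56 to −4.29 on the log2 scale and an adjusted p of at most 0.030. The count of called genes among the 10 was 1 for this comparison, through the loss of SELENOP, with quantile normalization (adjusted p = 0.063), no trend (0.091), only the 2 groups in the fit (0.105), voom (0.132) or the set covariate (0.105). Over all genes this comparison called 1322 with the 4 TFCO libraries as separate samples, 124 with only 2 groups, 232 with voom and 178 with the set covariate, against 536; leaving out 1 library gave 1 to 2 of the 10 genes and 153 to 4085 genes, the most without thyroid tissue 1. Thyroid against lung tissue called 0 of the 10 genes with no trend, only the 2 groups, the set covariate or the replicate block, and 1 with voom; over all genes it called 277 with only 2 groups and 167 with the replicate block, against 889, and leaving out 1 library gave 0 to 3 of the 10 and 58 to 4311 genes, the most without thyroid tissue 2. Tissue numbers share only a number (r = −0.073). The block changed no other call. TFCOs against lung tissue called 6625 genes with separate TFCO libraries and 6979 with only 2 groups, against 3435, and leaving out 1 library gave 2 to 5 of the 10 and 248 to 6986 genes. Late against early TFCOs gave 0 of the 10 under every alternative, and 0 to 2 genes with 1 library left out (2 without late mThy16). A group left with 1 library was assumed to vary like the others. Apart from fewer libraries, the cause of these shifts was not tested.

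Of 740 values recomputed, 31 changed direction, and no called difference of the 10 genes did. With the set covariate, TXNRD1 stood at 0.37 for TFCOs against thyroid tissue and 0.36 for thyroid against lung tissue, and TXNRD2 at −0.022 for the latter (−0.018 with equal totals). Quantile normalization, which moved the median of all genes to 0.17, 0.14 and 0.32 for TFCOs against thyroid, thyroid against lung and TFCOs against lung tissue, gave −0.31 for GPX4 and 0.40 for TXNRD2 against lung tissue and 0.019 for PRDX1 between passages; equal totals gave −0.13 for GPX4 against lung tissue, and voom 0.020 for TXNRD2 between passages. Leaving out 1 library gave, for TFCOs against thyroid tissue, −0.42 to 0.37 for TXNRD1; for thyroid against lung tissue, −0.44 to 0.36 for TXNRD1, −0.048 to 0.23 for TXNRD2 and −0.25 to 0.49 for PRDX1; for TFCOs against lung tissue, −0.48 to 0.49 for GPX4, −0.31 to 0.17 for TXNRD1 and −0.028 to 0.93 for PRDX5; and between passages, −0.10 to 0.41 for GPX4, −0.63 to 0.48 for TXNRD1, −0.54 to 0.47 for TXNRD2, −1.64 to 0.96 for SELENOP, −0.19 to 0.090 for PRDX1, −0.33 to 0.70 for PRDX5 and −0.34 to 0.49 for CAT. The planned edgeR and DESeq2 tests were not run. In their place, limma voom was run on the reads.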
